A study of Rattus norvegicus with 9 samples.

Results

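The miR-30 family was followed in rat serum through the 5p arms of its hairpins, which are miR-30a-5p, miR-30b-5p, miR-30c-5p, miR-30d-5p and miR-30e-5p. The members were taken by name, 5 of the 567 mature miRNAs counted in each library. Male Wistar rats had been injected daily with rotenone, an inhibitor of mitochondrial complex I used to model Parkinson's disease. The late group (LPD) had more than 40 days of rotenone and was taken at a terminal stage, the early group (EPD) had 10 days, and the dose in both was 2 mg per kg per day. Control animals made up the last group (Control). All 9 samples are given as wild type. The treatment label is the same for all of them, and the protocol text says that rats of all groups had rotenone, while the design text gives times and a dose for EPD and LPD alone. What the controls received is therefore not settled by the labels. Each group had 3 libraries of small RNA from serum, which is cell-free, so that release by fewer cells and less release per cell cannot be told apart.

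A miRNA pairs with its target mRNAs mainly through its seed, bases 2 to 8 from the 5′ end, and members of a seed family can therefore act on overlapping targets. miR-30 miRNAs are abundant in kidney, heart and adipose tissue. Among their described targets are the autophagy gene BECN1 for miR-30a in human cells and the matrix growth factor gene Ctgf in rat heart cells. In the rat the members come from 3 pairs of hairpins that lie next to each other on chromosomes 5 (Mir30c1 and Mir30e, inside the span of the transcription factor gene Nfyc), 7 (Mir30b and Mir30d, inside a lncRNA) and 9 (Mir30a and Mir30c2).

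Mature sequences are shown because the comparison between members turns on what their sequences share. RefSeq, on build GRCr8, gave them for 3 of the 5 members, and all 3 have the seed GUAAACA. They are printed 5′ to 3′ with the seed in capitals.
miR-30a-5p: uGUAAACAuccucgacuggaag
miR-30e-5p: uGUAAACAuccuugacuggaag
miR-30c-5p: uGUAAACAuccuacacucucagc
miR-384-5p: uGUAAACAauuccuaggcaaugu
miR-384-5p was the remaining measured miRNA with this seed in the RefSeq table.

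In that build miR-30a-5p lies at chr9:33233946-33233967 on the plus strand and miR-30e-5p at chr5:139637504-139637525 on the minus strand. miR-30c-5p has the same sequence at chr5:139634505-139634527 (minus) and chr9:33253695-33253717 (plus), so its counts cannot be divided between its hairpins. Counted from the 5′ end, the sequence of miR-30a-5p differs from that of miR-30e-5p by 1 base, U13C with the base of miR-30e-5p given first. miR-30c-5p differs from miR-30a-5p at 5 of the 22 bases compared, A13C, C14G, C18G, U19G and C20A with the base of miR-30c-5p first. miR-30e-5p and miR-384-5p differ at 11 of 22 bases, all outside the seed. How reads that fit several members were assigned is not given in the sources used here.

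Libraries differed in depth and in the miRNAs of other tissues. LPD libraries held 132609 to 305019 counts, against 1136537 to 1668807 in EPD and 1108167 to 1539557 in Control. An estimate from the number of miRNAs without any count, which assumes that LPD serum had the mean profile of the other libraries, put 12.3 to 49.1 counts on each molecule in LPD, against 1.65 to 2.74 in EPD and 1.01 to 2.55 in Control. Intervals below cover the counting error of reads only and are too narrow where several reads come from 1 molecule. The summed level of 5 red cell miRNAs was 236026 to 372968 CPM (counts scaled to library size, with TMM factors) in LPD, 153209 to 394876 CPM in EPD and 84573 to 169287 CPM in Control, with 1 of the 5 called higher in LPD than in Control and none of them at 0. Of 3 miRNAs of platelets and endothelium, summing to 54134 to 94579 CPM in LPD, 43776 to 62188 CPM in EPD and 27608 to 46555 CPM in Control, 2 were called higher in LPD than in Control. The 4 liver miRNAs summed to 21543 to 46856 CPM in LPD, 21043 to 56412 CPM in EPD and 29522 to 696990 CPM in Control. Of them miR-802-5p was at 0 in LPD and passed the filter through EPD and Control, so its lower call is not read as a difference. None of the other liver miRNAs was called. None of 3 muscle miRNAs was called. Of 2 neuron miRNAs 1 could be tested and was not called, and miR-124-3p was at 0 in LPD and Control. The hepatocyte miRNA miR-122-5p took 44.3% of the counts of Control 2, against 1.07 to 5.14% in the other 8 libraries. The part of these differences in the miR-30 values was not tested.

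After more than 40 days of rotenone 2 of the 5 members, miR-30d-5p and miR-30b-5p, were called lower in LPD than in Control and in EPD. Of all 294 tested miRNAs 32.7% were called lower in each comparison. miR-30a-5p and miR-30e-5p were not called in either. miR-30c-5p had lower values in every LPD library than in any other, but missed the threshold. Its log2 fold change against Control (-1.19) was close to that of miR-30d-5p (-1.32). The ratio of miR-30c-5p to miR-30d-5p did not pass over the 3 groups (adjusted p = 0.971, exact permutation test). Its log2 value had an SD of 1.56 in LPD, so this result does not show that they moved alike. No member was called after 10 days.

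**Figure D1:**
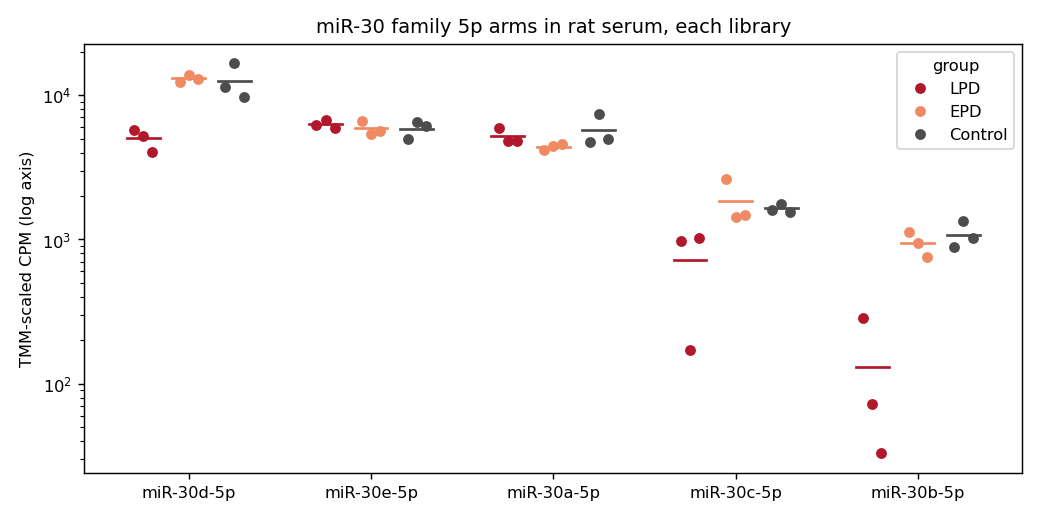
TMM-scaled CPM of each member on a log axis, 1 point for each library (3 in each group) and a line at the group mean. The LPD points of miR-30d-5p (4061 to 5714 CPM) and of miR-30b-5p (33.0 to 285 CPM) lie below all other points of the same miRNA, while the groups overlap for miR-30e-5p.

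miR-30d-5p, which with miR-30b represses the glycosyltransferase gene GALNT7 in human melanoma, was the most abundant member in Control and EPD. It had 5714, 5246 and 4061 CPM in the LPD libraries, 12411, 13824 and 12988 CPM in EPD and 11366, 16561 and 9659 CPM in Control. The LPD values did not overlap with those of either other group. The mean was 5007 ± 852 CPM in LPD, against 13074 ± 710.1 CPM in EPD and 12529 ± 3595 CPM in Control (SD, n = 3 each). By edgeR's quasi-likelihood test over all 294 tested miRNAs it fell by 1.32 on the log2 scale in LPD against Control (SE 0.27, adjusted p = 0.00556), a 2.50-fold lower level. Against EPD it fell by 1.38 (SE 0.27, adjusted p = 0.00591). The change against Control was smallest without Control 2, at a log2 fold change of -0.89 (adjusted p = 0.0313). In the main fit 45.6% of all tested miRNAs had a lower log2 fold change against Control than miR-30d-5p. The median there was -1.04 over all tested miRNAs and -0.21 over those with counts in all 9 libraries. In rank by counts, miR-30d-5p stood at places 32 to 36 of a library in LPD, against 14 to 21 in EPD and 13 to 22 in Control.

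miR-30b-5p, the least abundant member, had the largest decrease of the 5. Its levels were 285, 72.0 and 33.0 CPM in the LPD libraries, 1121, 948 and 757 CPM in EPD and 881, 1336 and 1030 CPM in Control. Every LPD value was below every other value, and the LPD libraries differed among themselves more than the others did. The log2 fold change was -3.03 in LPD against Control (SE 0.71, adjusted p = 0.00998), an 8.17-fold lower level, and -2.83 against EPD (SE 0.70, adjusted p = 0.0132), both by edgeR. These LPD levels rested on 86, 16 and 5 counts. At the mean counts per molecule of each library these come to 2.34, 0.326 and 0.406 molecules. A counted miRNA has at least 1 molecule, so that mean does not hold for the lowest of these values and the estimate is rough. The size of the decrease is poorly determined. Without LPD 1 the log2 fold change against Control was -4.09, and without LPD 3 it was -2.46.

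miR-30c-5p, which together with miR-133 represses Ctgf in rat cardiac cells, had 970, 171 and 1022 CPM in the LPD libraries, 2629, 1423 and 1472 CPM in EPD and 1604, 1760 and 1557 CPM in Control. No LPD value reached those of the other groups, and LPD 2, with 38 counts, was far below LPD 1 and LPD 3. In the edgeR fit the log2 fold change was -1.19 in LPD against Control (SE 0.59, adjusted p = 0.159) and -1.35 against EPD (SE 0.59, adjusted p = 0.110). It was therefore not called. Without LPD 2, whose 38 counts come to 0.775 molecules by the same rough estimate, the log2 fold change against Control was -0.69.

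miR-30e-5p had 6224, 6749 and 5881 CPM in the LPD libraries, 6635, 5391 and 5654 CPM in EPD and 4998, 6469 and 6065 CPM in Control. The 3 groups overlapped. Its log2 fold change in the edgeR fit was 0.10 in LPD against Control (SE 0.22, adjusted p = 0.727) and 0.09 against EPD (SE 0.22, adjusted p = 0.780). These estimates lie within 1 SE of 0, and their sign changed in some alternatives (without Control 1 it was -0.02 against Control). The hairpin of miR-30e lies next to that of miR-30c-1.

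miR-30a-5p had 5962, 4818 and 4819 CPM in the LPD libraries, 4145, 4475 and 4562 CPM in EPD and 4741, 7444 and 4934 CPM in Control. LPD values lay above all EPD values and among the Control values. By edgeR the log2 fold change was -0.13 in LPD against Control (SE 0.25, adjusted p = 0.712) and 0.24 against EPD (SE 0.25, adjusted p = 0.504). The sign against Control was not stable, since it was 0.14 with DESeq2 and 0.27 without Control 2.

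Over the members, 2 of 5 were called lower in LPD against Control and none higher. Of all 294 tested miRNAs 37.1% were called in that comparison, 32.7% lower and 4.42% higher. Against EPD the same 2 members were called lower, where 36.7% of tested miRNAs were called, 32.7% lower and 4.08% higher. Among the 124 miRNAs with counts in all 9 libraries, to which all 5 members belong, 21.8% were called lower and 9.68% higher against Control, and 23.4% lower and 8.06% higher against EPD. The members' median log2 fold change was -1.19 in LPD against Control, against -1.04 over all tested miRNAs and -0.21 over those with counts in all 9 libraries in the same fit. Groups did not overlap, with LPD lower, for 3 of 5 members in both comparisons, beside 41.8% of tested miRNAs against Control (6.46% with LPD higher, 48.3% in either direction) and 45.6% against EPD (6.8% with LPD higher, as miR-30a-5p was, and 52.4% in either direction). The median over all tested miRNAs in LPD against Control was -0.86 with library totals in place of TMM and -0.83 with DESeq2, which changes scaling and model together. DESeq2 called 31 miRNAs higher and 91 lower against EPD, beside 12 and 96 with edgeR. When TMM and the edgeR fit were restricted to the 124 miRNAs with counts in all 9 libraries, the calls were 16 higher and 22 lower against Control and 17 higher and 18 lower against EPD, with medians of 0.04 and 0.22. On counts per estimated molecule they were 11 higher and 20 lower against Control and 8 higher and 21 lower against EPD. The excess of lower calls thus varied with the scaling and the miRNAs fitted, while miR-30d-5p and miR-30b-5p were called lower in each of these fits.

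**Figure D2:**
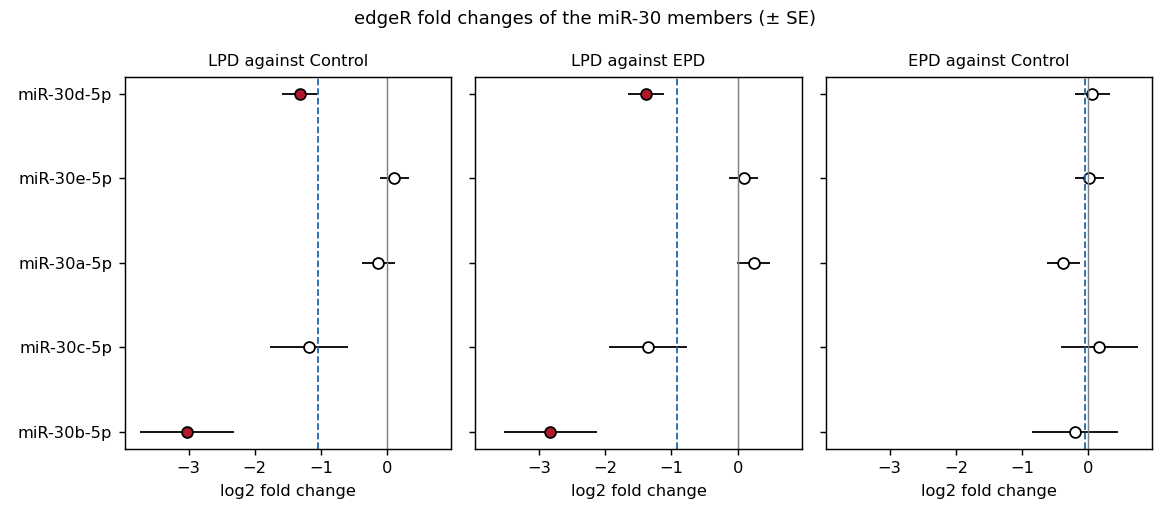
Log2 fold change of each member with its SE as a bar, from the edgeR fit, in LPD against Control, LPD against EPD and EPD against Control. Filled points passed an adjusted p of 0.05, open points did not, and the dashed line is the median of all 294 tested miRNAs (-1.04, -0.92 and -0.05).

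After 10 days of rotenone 0 of 5 members were called by edgeR against Control, where 0% of all tested miRNAs were called and 11 of 294 had an unadjusted p under 0.05. DESeq2 called 1 miRNA and limma-voom 0, and no member was among them. The log2 fold changes of the members ran from -0.38 for miR-30a-5p (SE 0.25) to 0.17 for miR-30c-5p (SE 0.58), and the adjusted p of each was 0.995. miR-30d-5p had 0.06 (SE 0.27), miR-30e-5p 0.01 (SE 0.22) and miR-30b-5p -0.20 (SE 0.65). EPD values of miR-30a-5p were all below the Control values, which was so for 8.16% of tested miRNAs, beside 4.76% with EPD higher and 12.9% in either direction. The other 4 members overlapped between the groups. These values depended on single libraries: miR-30a-5p was at -0.02 without Control 2, and each of the other 4 changed sign when some library was left out.

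The summed counts of the 5 members were 1.90, 1.81 and 1.81% of all counts in the LPD libraries, against 2.36, 2.98 and 2.53% in EPD and 2.61, 2.24 and 2.62% in Control. In LPD 1 the Wilson interval at 95% was 1.85 to 1.94%, and in Control 2, the nearest Control library, it was 2.22 to 2.27%. These intervals treat reads as independent. The family's counts in LPD 1 stood for an estimated 158 molecules, so the interval there is too narrow. The share was lower in every LPD library than in any other. It is a share of the counts, not an amount in serum, and in Control 2 miR-122-5p took 44.3% of the counts. On the log2 scale of TMM-scaled CPM the sum differed by -0.61 between LPD and Control, by -0.60 between LPD and EPD and by -0.01 between EPD and Control. With DESeq2 size factors the difference between LPD and Control was -0.35. No p is given for a sum over chosen members.

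All 5 members had their highest Control level in Control 2, although the family's share of counts was lowest there. The TMM factor of that library was 0.669, against 1.11 and 1.13 in Control 1 and Control 3, so its values were scaled up. miR-30d-5p and miR-30b-5p were still called lower in LPD without it.

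Whether members with 1 seed moved alike was tested by their ratios within a library, which do not depend on how libraries are scaled. Of 10 pairs, 8 differed between the 3 groups by an exact permutation test (adjusted p of 0.0306 to 0.0357 over the 10 pairs), in which 280 distinct assignments give a smallest p of 0.00357. The 10 pairs are built from the same 5 members, so they are not independent. The share of pairs of other miRNAs that would pass was not computed, so the count cannot be read as particular to this family. Pairs that did not pass were miR-30a-5p with miR-30e-5p (adjusted p = 0.270) and miR-30c-5p with miR-30d-5p (adjusted p = 0.971). Among those that passed, only miR-30a-5p with miR-30d-5p and miR-30d-5p with miR-30e-5p contain neither miR-30b-5p nor miR-30c-5p. The rest are limited by few LPD molecules, by the rough estimate 0.326 to 2.34 for miR-30b-5p and 0.775 to 12.6 for miR-30c-5p. With 5 added to each count as an alternative, 7 pairs passed. The ratio of miR-30b-5p to miR-30c-5p then did not (adjusted p = 0.0625, exact permutation test). When 1 Control or EPD library was left out, only the pair of miR-30a-5p and miR-30d-5p still passed. Of the 8, it was also the only pair that passed without each of the 9 libraries in turn (adjusted p of 0.0268 to 0.0357).

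The clearest shift was between miR-30a-5p and miR-30d-5p. There were 1.04, 0.919 and 1.19 counts of miR-30a-5p for each count of miR-30d-5p in the LPD libraries, 0.334, 0.324 and 0.351 in EPD and 0.417, 0.449 and 0.511 in Control. All 3 groups stood apart from each other. The log2 ratio was 0.06 ± 0.18 in LPD, -1.57 ± 0.06 in EPD and -1.13 ± 0.15 in Control (SD, n = 3 each), with p = 0.00357 over the 3 groups, the smallest the exact permutation test can give (adjusted p = 0.0306). The difference in log2 ratio was 1.19 between LPD and Control and -0.44 between EPD and Control, each with exact p = 0.1, the smallest that 3 against 3 libraries allow.

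The ratio of miR-30d-5p to miR-30e-5p was lower in LPD. There were 0.918, 0.777 and 0.691 counts of miR-30d-5p for each of miR-30e-5p in the LPD libraries, 1.87, 2.56 and 2.30 in EPD and 2.27, 2.56 and 1.59 in Control. LPD stood below both groups, and EPD and Control overlapped. The mean log2 ratio differed by -1.41 between LPD and Control and by -1.49 between LPD and EPD (adjusted p = 0.0306 over the 3 groups, exact permutation test). Without any 1 Control or EPD library the adjusted p was between 0.0714 and 0.113.

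miR-30a-5p and miR-30e-5p, the members that differ by 1 base, had ratios that overlapped between all groups. Their ratio was 0.958, 0.714 and 0.820 in LPD, 0.625, 0.830 and 0.807 in EPD and 0.949, 1.15 and 0.814 in Control. The mean log2 ratio differed by -0.22 between LPD and Control and by 0.14 between LPD and EPD, both smaller than the SD of 0.25 in Control. Between EPD and Control it differed by -0.36, more than that SD (exact p = 0.2, permutation test). That a read is counted for one or the other of them rests on the base at which they differ.

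miR-30b-5p fell further than miR-30d-5p although their hairpins are neighbours. The counts of miR-30b-5p for each of miR-30d-5p were 0.0501, 0.0141 and 0.00892 in LPD, 0.0904, 0.0686 and 0.0583 in EPD and 0.0776, 0.0807 and 0.107 in Control. LPD lay below both groups, with a difference in mean log2 ratio of -2.24 to Control and an SD of 1.29 in LPD (adjusted p = 0.0306 over the 3 groups, exact permutation test). Without any 1 Control or EPD library the adjusted p was between 0.0952 and 0.121. The low counts of miR-30b-5p in LPD limit this ratio as they limit its level.

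**Figure D3:**
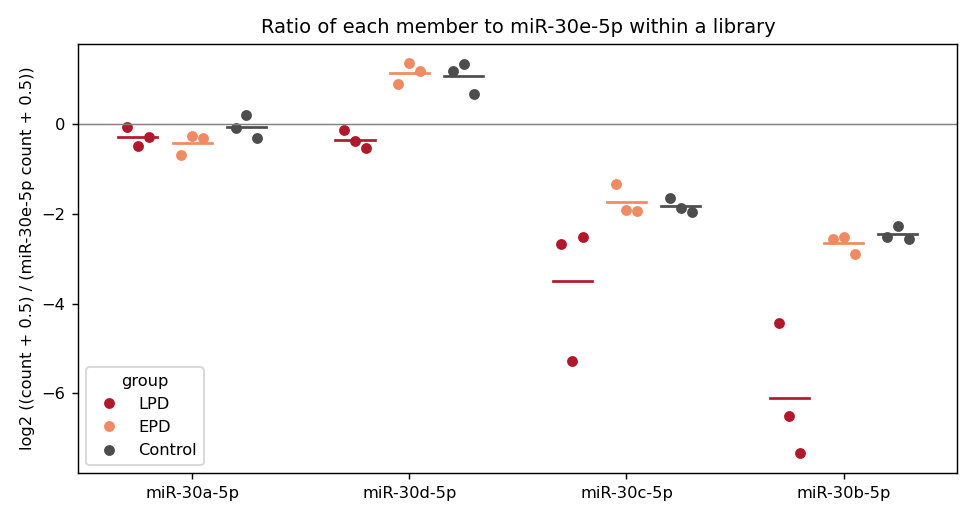
Log2 ratio of the counts of each member to those of miR-30e-5p, with 0.5 added to each count, 1 point for each library and a line at the group mean. The LPD points of miR-30d-5p, miR-30c-5p and miR-30b-5p lie below all EPD and Control points, and those of miR-30a-5p lie among them.

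The make-up of the family followed from these ratios. miR-30d-5p took 28.8 ± 2.70% of the family's counts in LPD, against 50.1 ± 3.60% in EPD and 46.4 ± 4.20% in Control (SD, n = 3 each). miR-30e-5p took 36.4 ± 3.60% in LPD, 22.5 ± 1.99% in EPD and 22.2 ± 3.52% in Control, and miR-30a-5p 29.9 ± 1.51%, 16.8 ± 1.31% and 21.2 ± 1.04% in the same groups. miR-30c-5p held 4.18 ± 2.84% in LPD, 7.00 ± 2.39% in EPD and 6.25 ± 0.87% in Control. miR-30b-5p held 0.706 ± 0.685% in LPD, 3.59 ± 0.59% in EPD and 4.05 ± 0.35% in Control. In LPD the member with the highest mean share was thus miR-30e-5p, where it was miR-30d-5p in EPD and Control.

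**Figure D4:**
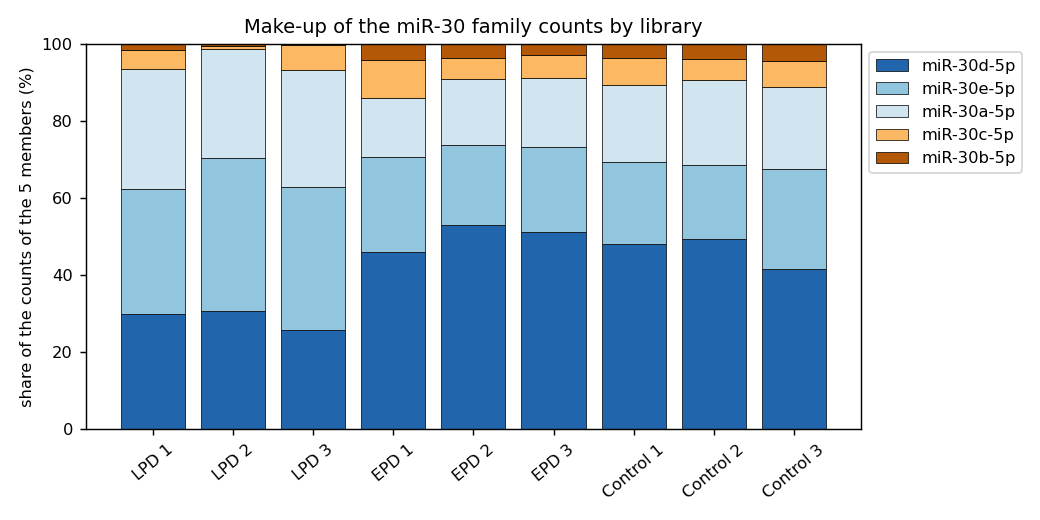
Share of each member in the summed counts of the 5 members, 1 bar for each library, in percent. miR-30d-5p takes 25.7 to 30.8% of the bars of LPD, 46.1 to 53.0% of those of EPD and 41.6 to 49.3% of those of Control.

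The order of the levels differed between groups. In Control and EPD miR-30d-5p came above all others, followed by miR-30e-5p and miR-30a-5p, then miR-30c-5p and miR-30b-5p. miR-30e-5p and miR-30a-5p overlapped in Control (4998 to 6469 and 4741 to 7444 CPM) and did not in EPD (5391 to 6635 and 4145 to 4562 CPM). In LPD miR-30a-5p overlapped with both miR-30e-5p and miR-30d-5p, and miR-30c-5p overlapped with miR-30b-5p. Within each LPD library, however, miR-30e-5p had more counts than miR-30a-5p, and miR-30c-5p more than miR-30b-5p. These orders are not firm in every library. miR-30e-5p and miR-30a-5p had 1879 and 1800 counts in LPD 1, and miR-30c-5p and miR-30b-5p had 38 and 16 in LPD 2.

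The other arms of the hairpins were less abundant. For miR-30a-3p, whose sequence and seed differ from those of the 5p arm, the mature sequence is shown with bases 2 to 8 in capitals.
miR-30a-3p: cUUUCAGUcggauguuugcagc
Of 6 such arms, miR-30b-3p, miR-30c-2-3p, miR-30d-3p and miR-30c-1-3p had no count in any LPD library. The means of the 3 that passed the filter, which they did through EPD and Control, were at most 42.2 CPM in EPD and 40.7 CPM in Control. In LPD 1 estimated molecule stood for 81.3 to 221 CPM, so a difference in these arms was not detectable at the depth of LPD, and neither a call nor a fold is given for them.

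miR-30a-3p and miR-30e-3p had counts in all libraries. miR-30a-3p had 474, 216 and 158 CPM in LPD, 481, 451 and 653 CPM in EPD and 432, 848 and 414 CPM in Control, with a log2 fold change of -0.99 in LPD against Control (SE 0.53, adjusted p = 0.184, edgeR). There were 12.5, 22.1 and 29.9 counts of miR-30a-5p for each of miR-30a-3p in LPD, 8.61, 9.92 and 6.98 in EPD and 11.0, 8.77 and 11.9 in Control. This ratio differed between the 3 groups (adjusted p = 0.0143 over the 2 arm pairs tested, exact permutation test), but not when any 1 Control or EPD library was left out (adjusted p up to 0.1). Its LPD values rested on 143, 48 and 24 counts of miR-30a-3p. By the rough estimate used above these come to 3.90, 0.979 and 1.95 molecules, which limits the ratio. miR-30e-3p had 517, 90.0 and 521 CPM in LPD, 585, 461 and 521 CPM in EPD and 432, 439 and 419 CPM in Control, and its ratio to miR-30e-5p did not pass (adjusted p = 0.514). In LPD 2 miR-30e-3p rested on 20 counts, or 0.408 molecules by the same estimate.

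miR-384-5p, which has the family's seed, had no count in LPD, 6, 0 and 11 counts in the EPD libraries and 5, 0 and 4 counts in the Control libraries, and was too low to test.

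The profile of the members' mean over the 9 libraries was closest to those of miR-19b-3p, miR-28-3p, miR-30a-3p, miR-186-5p and miR-146b-5p, among 152 other tested miRNAs with at least 100 CPM on average. Closeness was the root mean square difference of centred log2 CPM, which was 0.31 for miR-19b-3p and 0.34 for miR-146b-5p. Of the members, each of which is itself part of the members' mean, miR-30d-5p lay nearest to that mean (0.25) and miR-30b-5p farthest from it (1.19). Among 156 miRNAs ranked by closeness to miR-30a-5p, miR-30e-5p was at place 2 and miR-30d-5p at place 54. Ranked by closeness to miR-30d-5p, miR-30a-5p stood at place 32, miR-30e-5p at place 34, miR-30c-5p at place 44 and miR-30b-5p at place 90.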

How the data were processed

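The authors deposited whole-number read counts per mature miRNA, 1 table for each of 9 serum libraries and a matrix, in which 0 values differed. Per the labels' protocols, RNA came from a miRNeasy serum kit and libraries from the QIAseq miRNA kit. Per the submitters' processing notes, mRatBN7.2 was the genome build. Aligner, counting tool, miRNA annotation and use of molecular identifiers were not given in the sources used here. Groups and replicate numbers came from sample titles. Nothing says that samples came from separate animals or which shared a batch, so the spread behind each p-value may be technical.

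From the deposited counts, miRNAs were kept with filterByExpr (10 counts, 15 in total), scaled by TMM and fitted in 1 edgeR 4.0.16 robust quasi-likelihood model of the 3 groups (R 4.3.3), tested on simulated data, at an adjusted p (Benjamini-Hochberg) under 0.05. SEs came from the fit. Ratios had 0.5 added to each count and were tested by exact permutation, two-sided for 2 groups. The alternatives were DESeq2 1.42.0, limma-voom 3.58.1, library totals, other filters, 2-group fits, a replicate block and each library left out. Fitting counts per estimated molecule was chosen after seeing the data.

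Members and lists were chosen with earlier results of these data known. Named were the 5 members, the other arms, miRNAs sharing the seed and the 5 closest profiles, with miR-122-5p as context.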

Additional observations from a re-analysis of the deposited data

Results flagged for a closer look

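miR-30d-5p and miR-30b-5p were flagged because their values after more than 40 days of rotenone differed from those after 10 days in the test of that difference itself. The log2 fold change of LPD against EPD was -1.38 for miR-30d-5p (SE 0.27, adjusted p = 0.00591) and -2.83 for miR-30b-5p (SE 0.70, adjusted p = 0.0132) by edgeR, and every LPD library was below every EPD library for both. Depth and counts per estimated molecule differed between the same groups, and their part was not tested.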

How the results depend on the processing

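miR-30d-5p and miR-30b-5p were called lower in LPD against Control and against EPD in all 17 alternatives run, and the number of members called was 0 in EPD against Control and 2 in both LPD comparisons in each of them. Over all miRNAs, calls in LPD against Control were 38 over miRNAs with counts in all 9 libraries, 52 with only the 2 groups and 31 on counts per estimated molecule, beside 109. In LPD against EPD the same settings gave 35, 67 and 29, beside 108. In EPD against Control, 1 miRNA was called with DESeq2 and 1 in the fit restricted to miRNAs counted in every library, beside 0. With a library left out the calls ranged from 0 to 1 in EPD against Control, 93 to 140 in LPD against Control and 90 to 134 in LPD against EPD.

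The log2 difference of the family sum between LPD and Control was -0.35 with DESeq2 size factors, -0.34 with TMM factors from miRNAs with counts in all 9 libraries and -1.29 as the mean of the members' log2 CPM, which weights miR-30b-5p and miR-30c-5p like the others. Between LPD and EPD these were -0.30, -0.27 and -1.23. Leaving out a library gave -0.70 to -0.44 for LPD against Control, -0.67 to -0.53 for LPD against EPD and -0.11 to 0.16 for EPD against Control.

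Uncalled changes near 0 turned. In EPD against Control miR-30e-5p was -0.021 with DESeq2 and -0.043 over miRNAs counted in every library. In LPD against Control miR-30a-5p was 0.14 with DESeq2, 0.065 with library totals and 0.15 over miRNAs counted in every library. With a library left out, values in EPD against Control ran from -0.44 to -0.02 for miR-30a-5p, -0.28 to 0.11 for miR-30b-5p, -0.11 to 0.36 for miR-30c-5p, -0.048 to 0.44 for miR-30d-5p and -0.045 to 0.21 for miR-30e-5p. In LPD against Control they ran from -1.41 to -0.69 for miR-30c-5p, -0.28 to 0.27 for miR-30a-5p and -0.024 to 0.39 for miR-30e-5p, and in LPD against EPD from -0.030 to 0.28 for miR-30e-5p.

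The 8 pairs of members that passed became 1 to 8 with a library left out, and the 1 arm pair became 0 to 1. The cause was not tested. No pairing by replicate number was seen, as 0 of 9 same-numbered pairs correlated above 0.1 in their deviations from the group means (-0.09 to 0.06). With so few libraries in a group and the shallow depth of LPD, this check cannot exclude a shared batch or animal. With labels permuted within the replicate block 0 pairs of members and 0 arm pairs passed, where the smallest unadjusted p is 0.0278. The block changed no call of a member. Depth limits miR-30b-5p and miR-30c-5p in LPD most, with 5 and 38 counts in their lowest libraries.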
